A study of Mus musculus with 2 samples.

Results

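Adamts1, Adamts4, Adamts5, Adamts9 and Vcan were taken by name from the count tables of a young and an old mouse ovary section, and all 5 of these genes, of 22204 named in either table, were counted in both sections. Vcan encodes versican, a large chondroitin sulfate proteoglycan that binds hyaluronan. The other 4 encode secreted metalloproteases of the ADAMTS family that are known to cut versican and related proteoglycans. Slide-seq captures RNA of a tissue section on DNA-barcoded beads of known position, so each gene could be followed by section and by position. The young group is 1 section (replicate 3) of a 2-month C57BL6/J female and the old group is 1 section (replicate 1) of a C57BL6/J female of about 14 months. Both animals are untreated as far as the labels say, and both 10 µm sections come from sets chosen to show several oocytes on one plane. There is 1 library per age. Age therefore cannot be told apart from the animal, the plane of the cut or the library. No test between ages was possible, and every 95% interval given here covers counting error only.

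In the growing follicle, versican is made by granulosa cells, and around ovulation it is built into the hyaluronan-rich matrix that loosens the cumulus cells around the oocyte. ADAMTS1 is the protease best known for cutting it there. The luteinizing hormone surge induces Adamts1 in mural granulosa cells through the progesterone receptor, and mice without ADAMTS1 ovulate poorly. ADAMTS4 and ADAMTS5 were named aggrecanases for their action in cartilage and are also made in the ovary, and ADAMTS9 is a widely made member that cuts versican at the same site. The tables count RNA, so they show where protease and substrate transcripts lay, not protein or cleavage.

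Per the RefSeq table of GRCm38.p6, the assembly behind mm10, Adamts1 (gene ID 11504) spans chr16:85793827-85803113 and Adamts5 (gene ID 23794) spans chr16:85858157-85901125, with 55043 bases between them. Vcan (gene ID 13003) lies at chr13:89655309-89743027, Adamts9 (gene ID 101401) at chr6:92772699-92944450 and Adamts4 (gene ID 240913) at chr1:171250129-171262267. Vcan has 7 RefSeq transcripts and Adamts9 has 4, and counts per gene do not separate them. The promoters of Adamts1 and Vcan are shown because these 2 genes had the most alike pattern in the old section, as given further on. Each window holds 250 bases before and 50 after a RefSeq start on the minus strand, at chr16:85803064-85803363 for Adamts1 and chr13:89742463-89742762 for Vcan, with the GC box GGGCGG (either strand) and the TATA box TATAAA in capitals.
Adamts1: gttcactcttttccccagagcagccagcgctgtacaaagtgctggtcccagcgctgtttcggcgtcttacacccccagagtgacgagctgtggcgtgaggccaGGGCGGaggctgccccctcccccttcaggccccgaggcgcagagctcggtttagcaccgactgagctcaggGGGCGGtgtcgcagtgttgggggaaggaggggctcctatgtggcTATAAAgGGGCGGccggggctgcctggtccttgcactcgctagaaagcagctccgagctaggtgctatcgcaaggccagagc
Vcan: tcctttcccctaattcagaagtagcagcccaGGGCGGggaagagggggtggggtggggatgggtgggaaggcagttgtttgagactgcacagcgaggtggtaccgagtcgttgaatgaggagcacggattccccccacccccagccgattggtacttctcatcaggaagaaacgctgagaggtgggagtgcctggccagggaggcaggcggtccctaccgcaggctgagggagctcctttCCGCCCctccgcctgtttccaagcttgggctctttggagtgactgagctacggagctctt
The Adamts1 window held 3 GC boxes, 147, 76 and 25 bases before the start, and a TATA box 32 bases before it. The Vcan window held 2 GC boxes, 219 and 10 bases before the start, and no TATA box. A GC box was present in 35.7% and TATAAA in 13.6% of the 32851 promoter windows of the same length, searched on both strands. The Runx core TGTGGT and the C/EBP-like TTNCNNAA, whose factors are induced at ovulation, were in neither window, against 16.8% and 40.7% of all windows. The short CRE motif TGACG, a part of the cyclic AMP response element (CRE), was in the Adamts1 window 170 bases before the start and not in the Vcan window, against 20.8% of all windows. The whole element TGACGTCA, which contains the short motif, was in neither, against 1.79%. These matches are letters in a window and not shown binding sites.

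The old section had far more Adamts1 and Vcan per total count than the young one, more Adamts9, and less Adamts5. Adamts1 had 121 counts in the young section, 23.5 CPM (counts per 1000000 counts of the section), and 3571 counts, 1520.4 CPM, in the old. Its old/young ratio of 64.8 (95% interval 54.1 to 78.3) was the 15th highest of 12586 genes with at least 20 counts in 1 section. Vcan had 906 counts, 176 CPM, in the young section and 3001 counts, 1278 CPM, in the old, a ratio of 7.27 (6.75 to 7.84) and rank 121. Both genes were thus high in the old section, and the protease differed more than its substrate. Fewer cells of a kind and less RNA per cell cannot be told apart in such sums.

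Adamts9 had 180 counts, 34.9 CPM, in the young section and 246 counts, 105 CPM, in the old, a ratio of 3.00 (2.47 to 3.66). Adamts5 ran the other way, with 525 counts, 102 CPM, in the young section and 83 counts, 35.3 CPM, in the old, a ratio of 0.347 (0.272 to 0.438). Adamts4 was barely detected, with 18 young and 23 old counts, and its ratio of 2.81 (1.45 to 5.52) rests on those few counts. Thus 4 of the 5 genes were at least 1.5-fold higher in the old section and 1 was at least 1.5-fold lower, against 22.6% and 25.4% of the 12586 genes, whose median ratio was 0.988. Among the 4, the lower bound for Adamts4, 1.45, was under 1.5. Adamts4 also reached the required 20 counts only in the old section, so the filter itself fixed its direction. Giving every bin of the tissue equal weight in place of every count lowered the Adamts1 ratio to 39.4 and the Adamts4 ratio to 1.78.

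**Figure D1:**
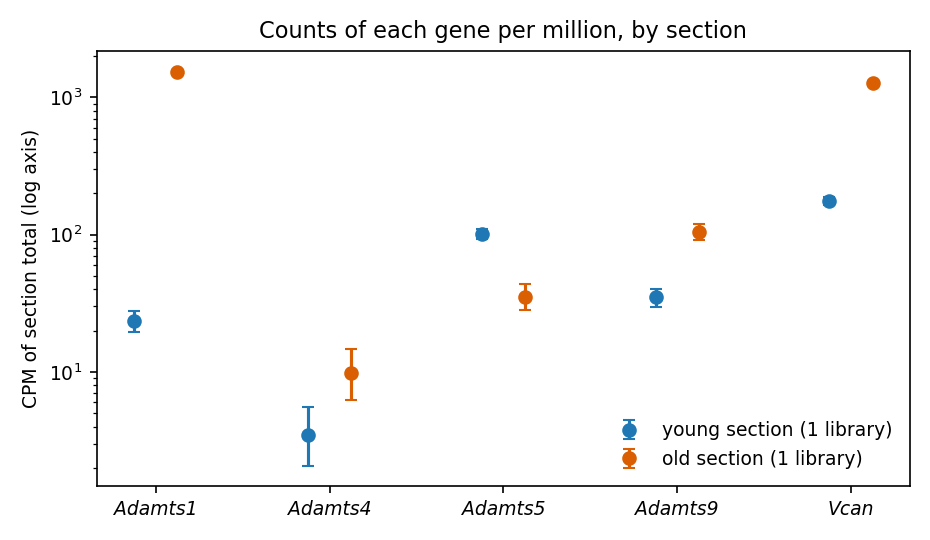
CPM (counts per 1000000 counts of the section) of each of the 5 genes in the young section (blue) and the old section (orange), 1 library each, on a log axis; bars are exact Poisson 95% intervals for counting error. Adamts1 went from 23.5 to 1520.4 CPM, while Adamts5 went from 102 to 35.3 CPM.

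The mix of protease transcripts differed with these levels. In the young section Adamts5 made up 62.2% of the counts of the 4 protease genes, against 2.12% in the old, while Adamts1 made up 14.3% and 91.0%. Adamts9 made up 21.3% and 6.27%. These are shares of counts, and counts of different genes are not a ranking of their levels because they are not set per length. For each Vcan count there were 0.134 Adamts1 counts (young) and 1.19 (old). Over all 4 proteases there were 0.932 (0.847 to 1.02) young and 1.31 (1.25 to 1.37) old counts for each Vcan count, so this differed much less than the mix did.

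The granulosa marker list stood at 11331 CPM in the young section. It stood at 3020 CPM in the old section, where 11 of its 14 measured genes were at least 1.5-fold lower, none was at least 1.5-fold higher and none was at 0. Over all 12586 genes, 25.4% were at least 1.5-fold lower and 22.6% at least 1.5-fold higher. Adamts5 was lower in the old section along with that list, and the part of the list in that difference was not tested. All 24 genes of the oocyte list were at least 1.5-fold lower in the old section, with a sum of 3455 CPM in the young and 305 CPM in the old. The luteal list stood at 7205 CPM in the young section and 14598 CPM in the old, and its 8 genes had a median ratio of 1.69.

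In the old section, Adamts1 and Vcan were gathered in the same places. Splitting each section at the median bead position in x and y gave quadrants in which old Adamts1 stood at 2507 and 2508 CPM on the low y side and at 146 and 160 CPM on the high y side. Old Vcan stood at 2201 and 1768 CPM on the low y side and at 273 and 179 CPM on the high y side. No young quadrant stood apart in this way, with Adamts1 between 21.5 and 25.6 CPM and Vcan between 122 and 209 CPM. For Adamts1, even the old quadrants with the least of it lay above every young quadrant. For Vcan this did not hold, since the old quadrant at low x and high y, 179 CPM, lay within the young range. Without the old quadrant at high x and low y, the old/young ratio was 40.0 for Adamts1, 4.18 for Vcan and 0.226 for Adamts5. For Adamts4 it was 1.74 (0.690 to 4.09), an interval that includes 1.

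Position was then followed in square bins of 5 bead spacings, where 1 spacing is the typical (median) gap between neighbouring beads, and bins with at least 500 counts were kept (1338 young, 895 old). Old Adamts1 was counted in 393 bins, with up to 96 counts in 1 bin, and old Vcan in 370 bins, with up to 70. Young Adamts1 was counted in 103 bins, with at most 4 in 1 bin, and young Vcan in 328, with at most 16. Moran's I rises from about 0 as adjoining bins grow more alike. It was 0.514 for old Adamts1 and 0.460 for old Vcan after each bin was thinned to 500 counts. The value was 0.0285 for old Adamts5 and 0.0109 for old Adamts9, which had 13 and 35 counts left after thinning. For the young genes it was 0.0822 for Vcan, 0.0508 for Adamts5 and -0.00905 for Adamts1.

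**Figure D2:**
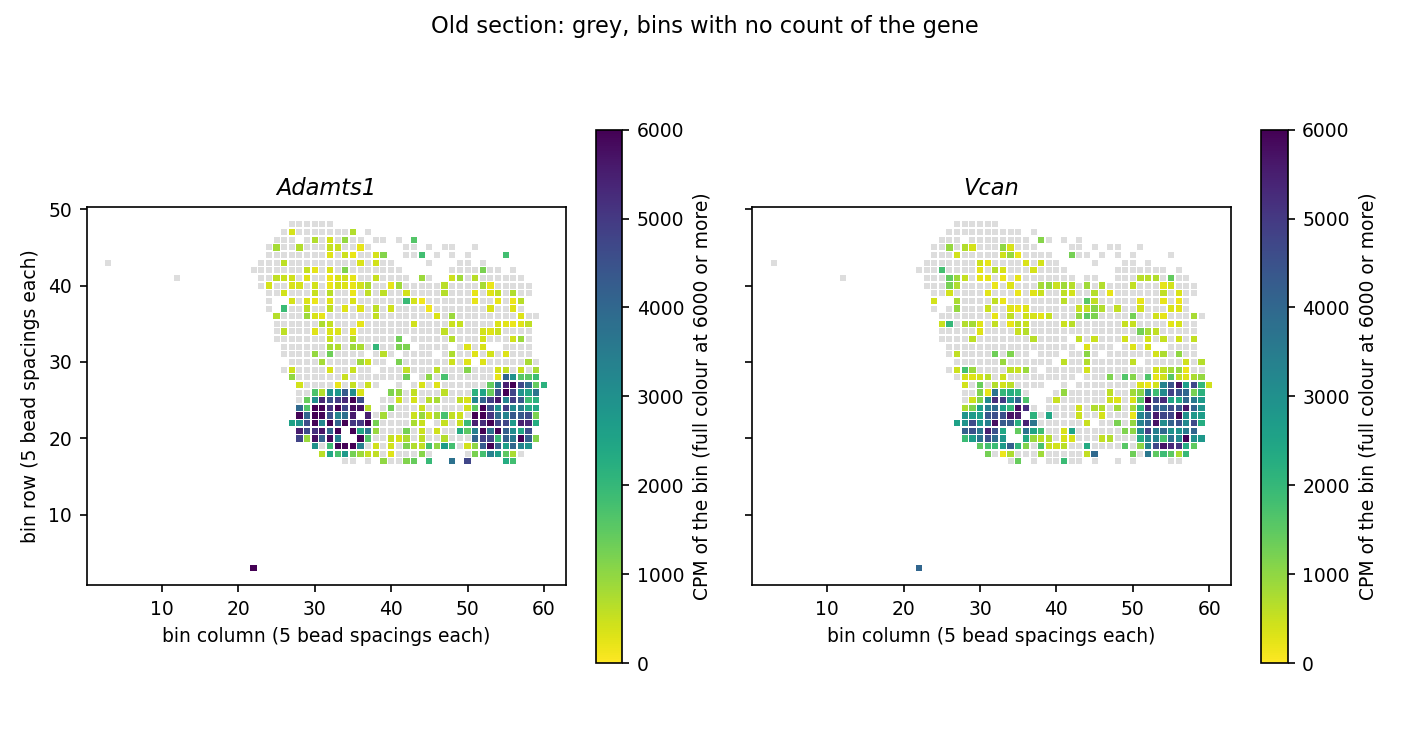
Old section, with each square a bin of 5 bead spacings, coloured by the CPM of Adamts1 (left) or Vcan (right) and grey where the gene had no count. High bins of both genes lie in 2 compact areas at low y, and the 393 bins with Adamts1 and 370 with Vcan also include scattered low ones.

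Vcan was concentrated in the bins with the most Adamts1. In the fifth of old bins highest in Adamts1 (179 bins) Vcan stood at 3395 CPM, against 240.3 CPM in the other 716 bins, a ratio of 14.1 (12.7 to 15.8). The other way round, Adamts1 stood at 4077 CPM in the 179 bins highest in Vcan and 257 CPM elsewhere, a ratio of 15.9 (14.3 to 17.7). Ratios of at least 1.5 were found for 13.3% of the 2611 genes with at least 200 counts by Adamts1, and for 13.4% by Vcan. Vcan ranked 2 of 2611 by Adamts1, behind Prkg2, a cyclic GMP-dependent kinase induced in follicles at ovulation, at 24.3 (15.5 to 39.9). With the 90 bins highest in Adamts1 in place of 179, the Vcan ratio was 6.35, and without the old quadrant at low x and high y it was 9.29.

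The other proteases followed the same bins more weakly. By Adamts1, Adamts5 had a ratio of 5.38 (3.25 to 9.23) in the old section, from 59 counts in the high bins and 22 in the others. Adamts9 had a ratio of 2.14 (1.65 to 2.78), from 125 and 117 counts. Adamts4 had 14 and 9 counts, a ratio of 3.12 (1.26 to 8.18). Adamts4 and Adamts5 had too few counts to belong to the 2611 genes behind the share of 13.3%, and the lower bound for Adamts4 was under 1.5. The scarce Adamts5 of the old section had more of its counts in these 179 bins than in all the others.

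In the young section Vcan was also higher where Adamts1 was counted, by a smaller ratio and over another class of bins. Young bins with an Adamts1 count were fewer than the fifth of bins used above, so the 103 bins with a count, which are deeper than the rest, were set against the other 1235. Vcan stood at 234 CPM in them and 171 CPM in the others, a ratio of 1.37 (1.12 to 1.66), where 1.97% of 5337 genes reached 1.5. Without the young quadrant at low x and low y the ratio was 1.20 (0.942 to 1.51), an interval that includes 1. Bins with any count of Adamts1 can be set side by side in both sections. Vcan was present in 42.7% of such young bins, against 24.5% of all young bins, and in 61.3% of such old bins, against 41.3% of all old bins. Adamts5 had a ratio of 1.12 (0.839 to 1.47) and Adamts9 of 1.23 (0.749 to 1.93), both with intervals that include 1. By these bins no enrichment of either with young Adamts1 was detectable, while the pair ratio given below differed for Adamts5.

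Single beads were compared in the same way in both sections. In the old section 1259 beads held Adamts1 and 1204 held Vcan, and 713 held both, which is 56.6% of the Adamts1 beads and 59.2% of the Vcan beads. Vcan was on 11.7% of all old beads, but beads with Adamts1 had a median of 486 counts against 125 for all beads, so depth moves with this overlap. Set per total count, Vcan stood at 3139 CPM on beads with Adamts1 and 409.6 CPM on the other beads. In the young section 13 of 111 Adamts1 beads held Vcan, 11.7%, against 3.40% of all beads, and beads with Adamts1 had a median of 385 counts against 153 for all. Set per total count, young Vcan stood at 278 CPM on beads with Adamts1 and 175 CPM on the others.

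A pair ratio was taken to leave out the shared depth of 1 bead. It is the CPM of 1 gene on beads at a given distance from each count of another, divided by the same around counts of any gene, and the bead of the count itself is left out. In the old section the ratio of Vcan around Adamts1 was 1.84 within 2 spacings, rank 5 of 2690 genes, of which 3.68% reached 1.5. It was 1.79 at 2 to 5 spacings, 1.74 at 5 to 10, 1.70 at 10 to 20 and 1.54 at 20 to 40. The fall with distance was slow, so the 2 transcripts shared areas many spacings wide. The young ratio was 1.64 within 2 spacings, from 101 pairs of counts, where 7.69% of 5384 genes reached 1.5, and 1.21 at 2 to 5 spacings. With beads of at least 200 counts the order of the sections within 2 spacings turned, with 1.78 in the young and 1.63 in the old. At this distance the pair ratio thus gave no stable order of the sections. Adamts5 around young Adamts1 had 1.81 within 2 spacings, from 53 pairs of counts, and 1.09 at 2 to 5. Adamts9 around young Adamts1 had 0.909 within 2 spacings, from 8 pairs.

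**Figure D3:**
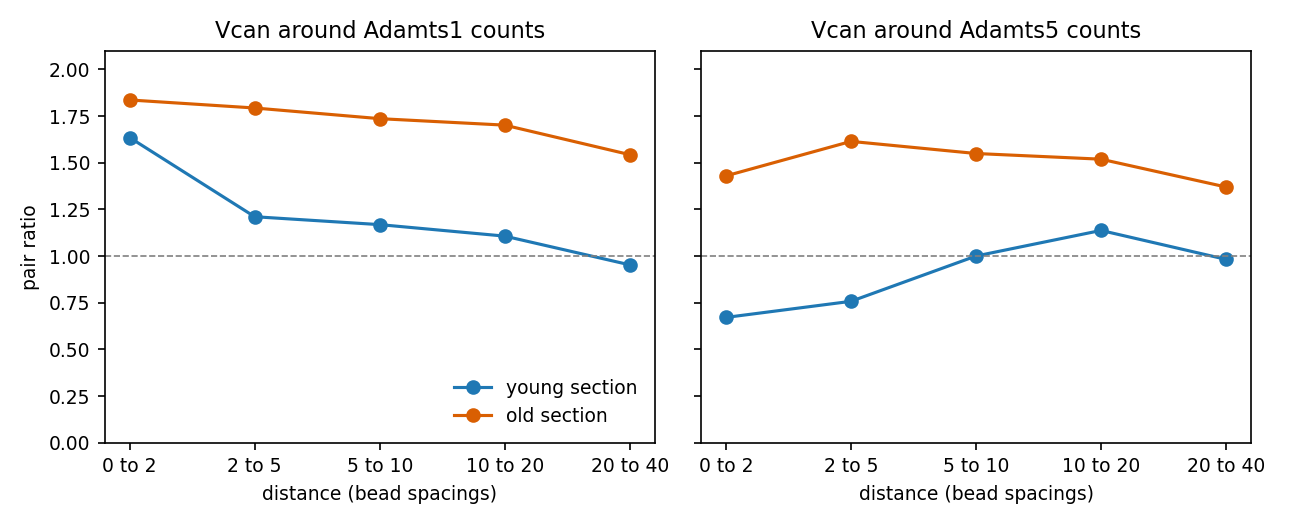
Pair ratio of Vcan around Adamts1 counts (left) and around Adamts5 counts (right) by distance in bead spacings, young section in blue and old in orange; the dashed line at 1 is the level around counts of any gene. Around Adamts5 the young ratio starts at 0.672 and the old ratio at 1.43.

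By the patch rule (adjoining bins with at least 5 Adamts1 counts and 5000 CPM), 48 old bins qualified, and 43 of them formed 4 patches of 28, 9, 4 and 2 bins. No young bin qualified. The patches held 37.1% of the Adamts1 and 30.0% of the Vcan counted in old bins, on 9.25% of all counts. The same rule for Vcan, added after the data were seen, gave 20 bins, of which 12 were also Adamts1-rich. Those 12 bins are 25% of the Adamts1-rich and 60% of the Vcan-rich bins, while 2.23% of all old bins were Vcan-rich.

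Lowering the level to 2500 CPM joined these bins into 2 areas of 63 and 57 bins, with 1 further bin lying apart. These areas were used to describe the pattern in more detail, a choice made after the data were seen. The 120 bins held 27.6% of all counts in bins, 85.3% of Adamts1 (which the rule fixed) and 81.0% of Vcan. They also held 67.9% of Adamts5, 43.8% of Adamts9 and 52.2% of the 23 Adamts4 counts. Vcan stood at 3781 CPM inside and 338 CPM outside, a ratio of 11.2 (10.2 to 12.3). The ratio was 5.54 (3.42 to 9.21) for Adamts5 and 2.04 (1.57 to 2.65) for Adamts9, so Adamts9 was less confined to the areas than Adamts5.

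Both areas had much the same make-up. Adamts1 stood at 4580.2 CPM in the larger area and 5086 CPM in the smaller, and Vcan at 3943 and 3472 CPM, a Vcan ratio of 1.14 (1.04 to 1.24). Adamts5 stood at 89.0 and 82.6 CPM and Adamts9 at 171 and 161 CPM, with intervals of the ratios that include 1. Vcan was thus slightly higher in the area where Adamts1 was slightly lower.

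Within the areas Vcan differed little by Adamts1. Vcan stood at 4049 CPM in the 60 inside bins highest in Adamts1 and 3505 CPM in the other 60, a ratio of 1.16 (1.07 to 1.25). It was 1.14 (1.03 to 1.26) in the larger area and 1.19 (1.02 to 1.37) in the smaller. Over all 895 bins Pearson's r of log counts per 10000 was 0.643, against 0.265 over the 120 inside bins and 0.257 over the 775 outside ones, where the range of Adamts1 is narrowed by the rule. A narrowed range lowers r by itself, so these values cannot show if the link was weaker inside or outside the areas than over the whole section. Outside the areas, the fifth of bins highest in Adamts1 still had a Vcan ratio of 3.57 (3.01 to 4.23).

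Vcan and Adamts5 at the edge of the areas differed from the interior. Vcan stood at 4247 CPM in the 35 interior bins and 3523 CPM in the 85 edge bins, a ratio of 1.21 (1.11 to 1.31), while Adamts1 had a ratio of 1.01 (0.938 to 1.09). Adamts5 had 12 counts in the interior and 43 at the edge, a ratio of 0.506 (0.243 to 0.976). In the 76 bins that adjoin the areas Adamts1 stood at 1116 CPM and Vcan at 1125 CPM, 5.85 (4.90 to 6.97) and 5.15 (4.34 to 6.10) times the bins farther out. The rule held every edge bin at 2500 CPM of Adamts1 or more and left out the adjoining bins by the same gene, but set no level for Vcan. The Adamts1 values of these zones are thus shaped by the rule, and they cannot be set against those of Vcan. A bin at the border can hold tissue of both sides, and its part in these values was not tested.

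The marker lists place the 2 areas among other genes. In the old bins highest in the surge-induced list (genes known to be switched on in follicles by the luteinizing hormone surge), Adamts1 had a ratio of 14.8 (13.4 to 16.4) and Vcan of 12.2 (11.0 to 13.5). Adamts5 had 5.61 (3.39 to 9.62) and Adamts9 1.80 (1.39 to 2.34). The surge-induced list was chosen with earlier results of these data known. It holds Prkg2, a gene of like pattern to old Adamts1, so these ratios are not an independent placement of the areas. The granulosa list gave 1.46 (1.36 to 1.57) for Adamts1 and 1.85 (1.72 to 2.00) for Vcan. In the old bins highest in the luteal list both were scarce, at 0.109 (0.0881 to 0.135) and 0.0924 (0.0713 to 0.118), and with the macrophage list at 0.110 (0.0834 to 0.142) and 0.136 (0.104 to 0.175). The areas were not without luteal transcripts, since that list stood at 11375 CPM inside them and 15848 CPM outside, a ratio of 0.718 (0.699 to 0.737). In the 179 bins highest in Adamts1 the luteal list stood at 11602 CPM, 0.720 (0.703 to 0.738) of the other bins. A bin holds several cells, so these values give neighbourhood and not a cell type.

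Adamts9 stood apart from Adamts1 and Vcan by these lists. For old Adamts9 the intervals include 1 in the bins highest in the blood endothelium list, 1.05 (0.719 to 1.48), the stromal fibroblast list, 1.16 (0.810 to 1.62), and the surface epithelium list, 0.905 (0.592 to 1.34). Adamts1 was at 0.216, 0.152 and 0.186 in the same bins and Vcan at 0.201, 0.145 and 0.168. Old Adamts9 was low by the luteal list, at 0.405 (0.249 to 0.629), and by the theca list, at 0.510 (0.292 to 0.836). Of the 1934 old counts of the theca list 1650 were of Aldh1a1, so that list ranks bins mostly by 1 gene. The young Adamts9 interval included 1 for all of the lists except the oocyte list, 0.671 (0.437 to 0.998).

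Vcan was the gene most alike to Adamts1 in the old section, and Adamts1 the gene most alike to Vcan, with a Pearson's r of log counts per 10000 of 0.643 over 895 bins. The next 5 genes were the same for both, namely Crispld2, Bves, Prkg2, Smarca1 and Ptgs1, and had r of 0.549 to 0.606 with Adamts1. Ptgs1 is a cyclooxygenase of prostaglandin synthesis, Smarca1 a chromatin remodeller and Crispld2 a secreted matrix-associated protein. Bins share depth and neighbours, so r is a description. With bins thinned to 500 counts Vcan remained first for Adamts1 and Adamts1 for Vcan, at 0.572, but the next 5 changed. They were then Heg1, Smarca1, Ktn1, Bves and Runx1 for Adamts1 and Smarca1, Heg1, Ctsl, Spp1 and Rhox8 for Vcan, so Crispld2, Prkg2 and Ptgs1 were on neither list. Over bins not thinned, Vcan was second for old Adamts9, behind Cdkn1a, at an r of 0.220, while Adamts9 ranked 228 of 2611 for Vcan. With bins thinned to 500 counts the r of Adamts9 with Vcan was 0.0577, rank 350 for Vcan.

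In the young section, Vcan and Adamts5 both lay with granulosa genes but were highest in different bins. In the fifth of young bins highest in the granulosa list (268 of 1338), Vcan had a ratio of 3.04 (2.66 to 3.48) and Adamts5 of 2.99 (2.51 to 3.56). In the bins highest in the oocyte list Vcan had 1.66 (1.44 to 1.91) and Adamts5 0.182 (0.119 to 0.268). In the bins highest in Vcan itself Adamts5 stood at 83.8 CPM, against 110.3 CPM in the others, a ratio of 0.760 (0.617 to 0.930), where 7.87% of 5336 genes were at least 1.5-fold lower. The pair ratio of Vcan around Adamts5 was 0.672 within 2 spacings, 0.758 at 2 to 5 and 1.00 at 5 to 10, while each gene lay near itself, at 3.47 for Adamts5 and 2.44 for Vcan within 2 spacings. Vcan was thus below the level around any count close to Adamts5, and not farther away.

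**Figure D4:**
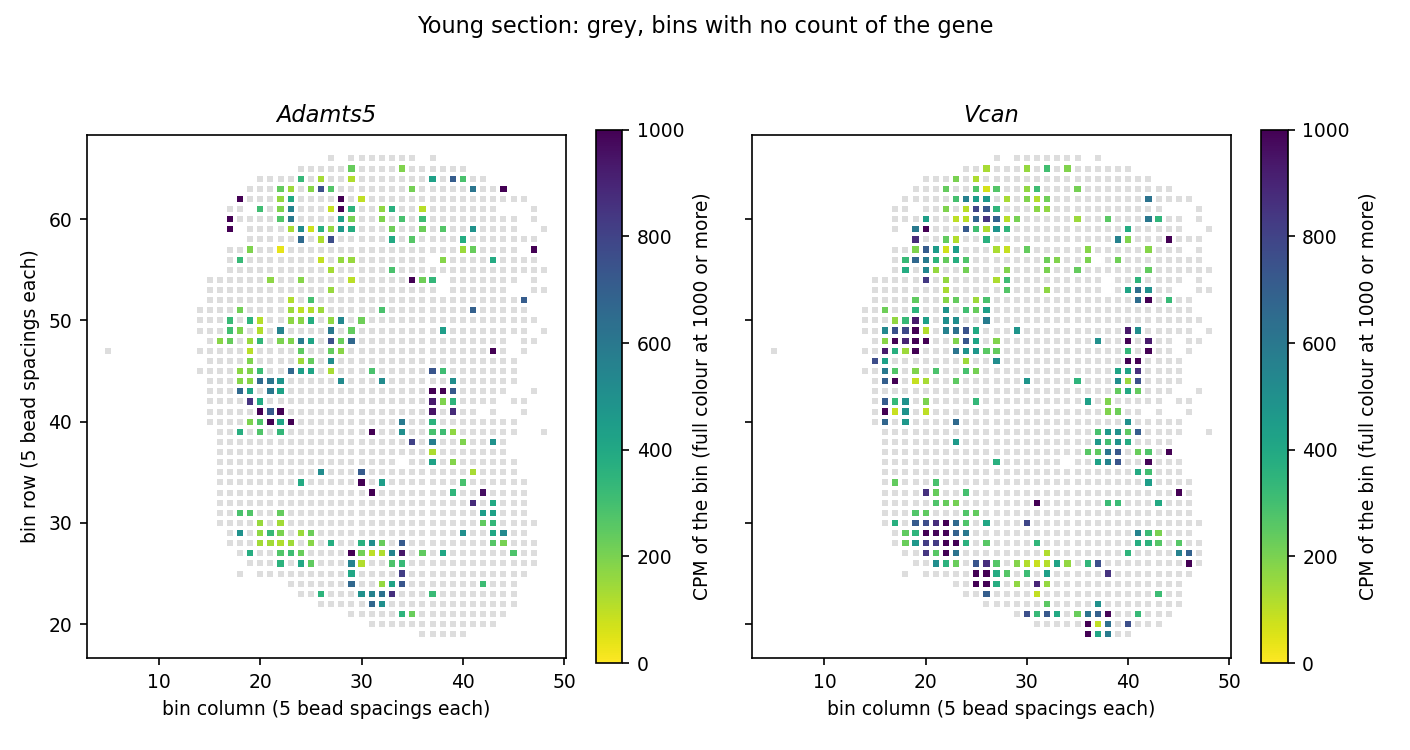
Young section, with each square a bin of 5 bead spacings, coloured by the CPM of Adamts5 (left) or Vcan (right) and grey where the gene had no count. Counts of both genes lie in clusters, and 8 bins held at least 3 counts of each, of 55 such bins for Adamts5 and 121 for Vcan.

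The separation was larger among granulosa-rich bins, a contrast added after the data were seen. Within the 268 young bins highest in the granulosa list, Vcan stood at 194 CPM in the 54 bins highest in Adamts5 and 386 CPM in the other 214, a ratio of 0.503 (0.383 to 0.652). Adamts5 stood at 105 CPM in the 54 highest in Vcan and 225 CPM in the other 214, a ratio of 0.468 (0.324 to 0.661). Over all young bins, with the 258 bins that held Adamts5 against the other 1080, the ratio of Vcan was 1.28 (1.11 to 1.47), so the direction depended on the bins compared. By presence alone the genes shared bins, since 40.7% of the 258 bins with Adamts5 held Vcan, against 24.5% of all bins. Of 55 bins with at least 3 Adamts5 counts and 121 with at least 3 Vcan counts, 8 were the same, which is 14.5% and 6.61%, where 9.04% of all bins had at least 3 Vcan counts. Depth moves with these overlaps, as the median bin with at least 3 counts of Adamts5 alone held 6037 counts and that with neither 2818.

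The genes beside them differed too. The 47 bins with at least 3 Adamts5 counts and fewer than 3 of Vcan held 1090.4 CPM of Inhba, an activin subunit of granulosa cells of growing follicles, against 4727 CPM in the 113 bins with Vcan alone, a ratio of 0.231 (0.206 to 0.257). Cyp19a1, the aromatase that makes oestrogen, had a ratio of 0.172 (0.0928 to 0.295) and Inhbb, another activin subunit, 0.229 (0.190 to 0.275). Gja1, a connexin of granulosa gap junctions, had 0.889 (0.842 to 0.937) and Nr5a2, a nuclear receptor, 0.968 (0.817 to 1.14). The granulosa genes thus did not differ by one factor between the kinds of bin. The oocyte list stood at 204 CPM in the Adamts5 bins and 9212 CPM in the Vcan bins.

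Distance from oocytes ordered the pair in the same way. The young section had 64 oocyte-rich bins in 14 groups, by a rule of at least 10 oocyte-list counts that make up at least 1% of the bin. Vcan stood at 315 CPM (270 to 366) in those bins, 223 CPM within 5 spacings, 79.1 CPM (59.1 to 104) at 5 to 10, 184 CPM at 10 to 20 and 149.8 CPM farther out. Adamts5 stood at 9.11 CPM (2.96 to 21.2) in them, 61.1 CPM within 5 spacings, 237 CPM (202 to 278) at 5 to 10, 124 CPM at 10 to 20 and 77.9 CPM farther out. At 5 to 10 spacings, where Vcan was lowest, Adamts5 was highest in these rings, which pool all 14 groups. The granulosa list did not peak there, with 7974 CPM within 5 spacings, 8799 CPM at 5 to 10 and 13166 CPM at 10 to 20.

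**Figure D5:**
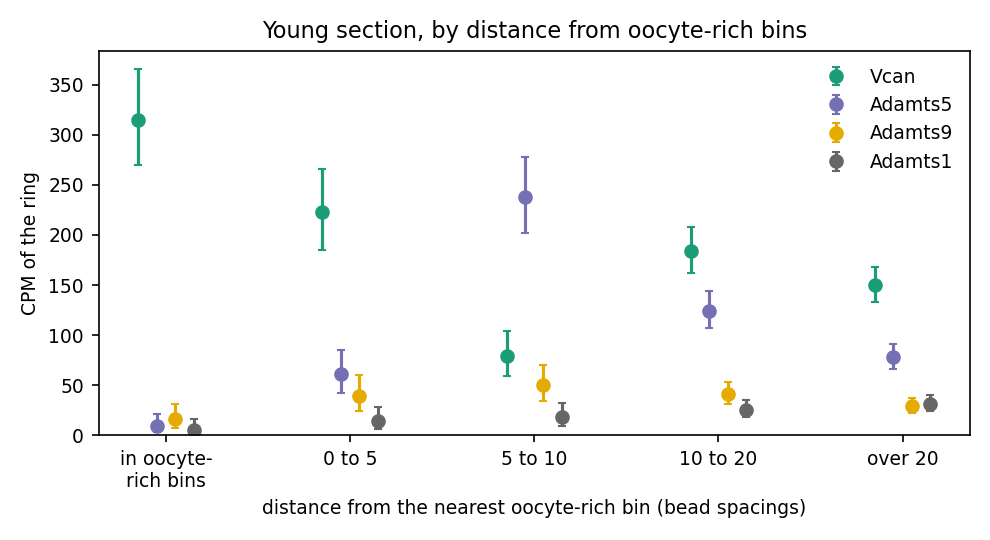
Young section: CPM of Vcan, Adamts5, Adamts9 and Adamts1 in oocyte-rich bins and in rings around them, in bead spacings; bars are exact Poisson 95% intervals for counting error. Vcan is highest in the oocyte-rich bins (315 CPM) and lowest at 5 to 10 spacings (79.1 CPM), where Adamts5 is highest (237 CPM). The rings pool all oocyte groups, which were not alike.

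The oocyte groups were not alike. Vcan in and around the 14 young groups ran from 0 to 427 CPM with a median of 194 CPM, and Adamts5 from 0 to 308 CPM with a median of 39.4 CPM. Each was counted in 11 of the 14 groups. Adamts5 was uneven among them, at 308, 241, 222, 218 and 136 CPM in the highest groups. Every other group had at most 77.4 CPM of Adamts5, against 102 CPM over the whole section. Spearman's rho of Vcan with Adamts5 over the 14 groups was -0.131, so the pooled rings do not describe each group. Adamts1 was low near young oocytes, with 3 counts, 5.46 CPM, in the oocyte-rich bins and 31.2 CPM (23.9 to 39.9) beyond 20 spacings. In the old section 5 oocyte-rich bins in 2 groups held 6 Vcan and 2 Adamts1 counts, too few to follow by distance.

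Young Adamts1, although scarce, was placed unlike young Vcan by several lists. In the young bins highest in the theca list Adamts1 had a ratio of 1.97 (1.27 to 2.99), from 32 counts there, and Vcan 0.111 (0.0652 to 0.176). Aldh1a1 gave 32140 of the 33265 young counts of that list, and Cyp17a1 gave 685. The theca list thus ranks bins mostly by Aldh1a1 and does not place Adamts1 with theca cells. In the young bins highest in the smooth muscle list Adamts1 had 1.63 (1.01 to 2.56) and Vcan 0.213 (0.143 to 0.307). The granulosa list gave 1.40 (0.943 to 2.06) for Adamts1, which includes 1. Ranking the bins by Adamts1 in place of the list gave another picture, since the 103 young bins with Adamts1 held the granulosa list at 18549 CPM and the other bins at 10566 CPM, a ratio of 1.76 (1.72 to 1.79). In the same bins the theca list had 1.21 (1.17 to 1.25) and the smooth muscle list 0.964 (0.875 to 1.06). The lists beside young Adamts1 thus depended on which of the pair ranked the bins, and Adamts1 cannot be placed away from granulosa genes. In the old section the theca list gave 0.209 (0.171 to 0.253) for Adamts1 and the smooth muscle list 0.219 (0.184 to 0.259).

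Genes of like pattern also differed by section. For young Vcan they were Plxnc1 (r of 0.420 over 1338 bins), Ihh, Map3k5, Nr5a2, Serpine2 and Fam13a, among them Ihh, the hedgehog ligand that granulosa cells send to theca cells. Adamts5 ranked 2139 of 5336 for young Vcan. With bins thinned to 500 counts none of these 6 was kept among the 6 most alike. For young Adamts5 they were Ank3 (r of 0.377), Sema5a, Cnmd, Foxo1, Nr5a2 and Bmpr2, so Nr5a2 was on both lists. For young Adamts1 the highest r was 0.145, for Gramd1b, and Vcan ranked 143 of 5337. After thinning the highest was 0.150, for Zfyve26, and Vcan ranked 1224.

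The pathway around the proteases was described from lists of genes with at least 20 counts in 1 section. Of all 12586 such genes, 22.6% were at least 1.5-fold higher in the old section and 25.4% at least 1.5-fold lower. Of 10 measured genes of the surge-induced list (of 13), all 10 were at least 1.5-fold higher in the old section, with a median ratio of 30.3, or 15.7 with 3 genes at their bound. Of them Ptgs2, Btc, Edn2, Nts, Prkg2 and Snap25 reached 20 counts only in the old section, so the filter itself fixed their direction. These genes also set the median, and the list was chosen with earlier results of these data known. Runx1, Runx2, Cebpb and Rgcc reached 20 counts in both sections, at ratios of 2.41 to 4.69. Prkg2 had 3 young and 282 old counts, a ratio of 206 (69.9 to 1007). Edn2, a vasoconstrictor peptide made at ovulation, Snap25, a vesicle fusion protein, and Ptgs2, the inducible cyclooxygenase, had no count in the young section and were at least 64.4-fold, 30.0-fold and 23.4-fold higher against a floor of 3 counts there. The lowest ratios were those of the transcription factors Cebpb, 2.41, and Runx1, 4.53, and of Rgcc, 4.53. Pgr, the progesterone receptor, had 3 and 2 counts.

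Other members of the protease family did not share the direction of Adamts1. Of 7 other Adamts and Adamtsl genes measured, none was at least 1.5-fold higher in the old section, 4 were at least 1.5-fold lower, and the median ratio was 0.632. The shares over all genes were 22.6% higher and 25.4% lower. Adamts17 had a ratio of 0.1997, Adamts6 of 0.396 and Adamtsl1, which has no protease domain, of 0.403. Adamts10, which acts on fibrillin microfibrils and had the most counts, had 1.22 (1.08 to 1.36), Adamts12 had 1.08 and Adamts19 had 0.892.

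The genes that activate, inhibit or take up these proteases were mixed, with 4 of 10 at least 1.5-fold higher, 2 at least 1.5-fold lower and a median of 1.22. Among all genes 22.6% were higher and 25.4% lower by the same rule. Timp1, a tissue inhibitor aimed mainly at matrix metalloproteinases, had a ratio of 8.36 (7.87 to 8.88), with 264 CPM in the young section and 2208 CPM in the old. Timp3, a tissue inhibitor that acts on ADAMTS proteases, had 1.36 (1.20 to 1.53). The proprotein convertase Pcsk5 had 4.34 (3.91 to 4.83) and the membrane proteoglycan Sdc4 had 2.95 (2.64 to 3.30). At the low end, the convertase Pcsk6 had 0.331, the membrane-bound inhibitor Reck 0.517 and the uptake receptor Lrp1 0.737. Timp2 had 1.08, so of the 3 tissue inhibitors measured Timp1 was the one more than 1.5-fold higher.

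Timp1 and Timp3 were placed unlike each other around the 2 Adamts1 areas of the old section. Timp1 stood at 4821 CPM in the bins adjoining the areas, 3878 CPM in their edge bins, 2956 CPM in their interior and 1233 CPM farther out. Within the areas it was lower where Adamts1 was higher, with a ratio of 0.812 (0.747 to 0.883), and 0.720 (0.649 to 0.799) in the larger area but 0.896 (0.776 to 1.03) in the smaller. Timp3 was lower inside than outside, with a ratio of 0.438 (0.328 to 0.576), and within the areas it had a ratio of 0.408 (0.221 to 0.722) in the bins highest in Adamts1. Timp3 was thus scarce where Adamts1 was most abundant, on few counts. The bins of the 5000 CPM rule held 10 Timp3 counts where only Adamts1 was rich and 5 where both Adamts1 and Vcan were. Timp2 was not placed around the areas, and inhibition was not measured.

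Partners of versican in the matrix showed no common direction. Of 9 measured hyaluronan and hyalectan genes 3 were at least 1.5-fold higher and 3 at least 1.5-fold lower, with a median of 0.853. The shares over all genes, 22.6% higher and 25.4% lower, are the background for this list and for the versican partners below. Tnfaip6, which links hyaluronan chains to inter-alpha-inhibitor, had 6 young and 23 old counts, a ratio of 8.42 (3.33 to 25.3), and Cemip, which breaks hyaluronan down and had the most counts in the old section, had 5.38 (4.69 to 6.18). Of these, Tnfaip6 reached the required 20 counts only in the old section, so the filter itself fixed its direction. Cd44, a hyaluronan receptor, had 1.93. Bcan, a relative of versican, had 0.1997, Itih2 0.246 and Itih5 0.501. Of 8 measured versican partners 3 were higher and 2 lower, with a median of 1.14, among them Tnxb at 5.56, Fbln2 at 3.25, Egfr at 1.77, Fbn2 at 0.290, Fbn1 at 0.474 and Fbln1 at 0.763. Tnc, the partner with the most counts, had 1.04 (0.986 to 1.10).

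Among genes that build the chondroitin sulfate chains of versican, 7 of 17 were at least 1.5-fold higher and 2 at least 1.5-fold lower, with a median of 1.28. This stands against 22.6% and 25.4% of all genes. The sulfotransferases Chst15 and Chst11 had ratios of 9.27 (7.09 to 12.3) and 3.61 (3.20 to 4.08), and Xylt1, which starts the chain, had 3.42 (2.06 to 5.76). Chst7 had 0.0578 (0.00143 to 0.342) from 38 and 1 counts, the chain-lengthening Chsy1 0.579 and the linker enzyme B3gat3 0.711. Inside the Adamts1 areas of the old section Chst11 stood 5.03 (4.29 to 5.91) and Chst15 4.50 (3.51 to 5.80) times as high as outside. These 2 sulfotransferases thus lay with Vcan in the old section.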

How the data were processed

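Slide-seq bead counts of 1 young and 1 old ovary section were used as deposited. The deposited tables give counts, as whole numbers, for each gene on each bead, and other deposited files give bead positions, with no length unit stated. Per the submitters' processing notes the build was mm10, and no aligner, annotation or strand setting is given in the labels used here, nor if a count is a molecule or a read. The young section had 5158314 counts on 21403 beads (median 153) and the old 2348768 on 10267 (median 125), and the sections shared 0 bead barcodes. Low depth limits Adamts4 and the scarce genes most. All beads with counts were kept.

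Counts were summed by section, bin, bead or ring and scaled to CPM. Ratios have exact conditional binomial (Clopper-Pearson) and levels exact Poisson 95% intervals, for counting error only. A count of 0 was set against a floor of 3. No test was made, since each age has 1 library. The members and gene lists were chosen with earlier results of these data known. Named genes are the 5 members, the 3 highest, 3 lowest and most abundant of each pathway list (Timp2, Timp3 and Pgr, and genes beside the young bins, were added after values were seen) and the 6 most alike in pattern. Alternatives changed bead and bin minimums, bin size, totals, weighting, thresholds and quadrants. The steps were tested on simulated counts. Python 3.11.15, numpy 2.4.6, scipy 1.17.1, pandas 2.3.3 and matplotlib 3.10.9 were used.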

Additional observations from a re-analysis of the deposited data

Results flagged for a closer look

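In 9 contrasts the bins high in a list or gene differed from the other bins in opposite directions in the young and old sections, with both counting intervals on different sides of 1. The difference between sections was not tested in any of them, because each age has 1 section.

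For Adamts1 these were the oocyte list (0.37 young, 1.18 old), the smooth muscle list (1.63 young, 0.219 old) and the theca list (1.97 young, 0.209 old). For Vcan they were the lymphatic endothelium list (1.62 young, 0.8 old), the surface epithelium list (1.33 young, 0.168 old) and the surge-induced list (0.318 young, 12.2 old). Adamts5 had them by the surface epithelium list (1.62 young, 0.168 old, the latter from 2 counts), by the surge-induced list (0.479 young, 5.61 old) and by Vcan (0.76 young, 4.99 old). Old bins of the oocyte list were those with any count of it. These 178 bins held 713 oocyte-list counts against 17718 in young bins, so the same list marks different bins in the sections. Counts of the theca list were mostly of Aldh1a1 in both sections.

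Ranking the bins by the gene in place of the list gave opposite directions for the theca, lymphatic endothelium and surge-induced lists, and not for the oocyte, smooth muscle and surface epithelium lists. By Adamts1 the oocyte list had 0.294 (0.270 to 0.319) young and 0.122 (0.0871 to 0.168) old. The theca list had 1.21 and 0.535 by Adamts1, and the smooth muscle list 0.964 (0.875 to 1.06) and 0.363. By Vcan the surface epithelium list had 0.754 (0.615 to 0.921) young and 0.291 (0.242 to 0.348) old. The lymphatic endothelium list had 1.35 and 0.723 by Vcan and the surge-induced list 0.760 and 4.16. In bins with any Adamts5 count, Vcan had 1.28 (1.11 to 1.47) young and 2.85 (2.64 to 3.08) old. The opposite directions of Adamts5 by Vcan were thus not found with the ranking turned round. In the 5 old oocyte-rich bins Adamts1 stood at 96.1 CPM, from 2 counts, against 1642 CPM beyond 20 spacings.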

How the results depend on the processing

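No paired analysis was possible because each age has 1 sample and the sections carry different replicate numbers. The limits are 1 library per age and few counts of Adamts4 and of old Adamts5. Of 88 values under alternatives 55 stayed within the main counting interval or count range and 33 were labelled as moved. The 33 include every pair ratio and Moran's I, which have no interval and were labelled so whatever their value. None of the 5 old/young ratios or of the Vcan ratios by Adamts1 turned to the other side of 1. The interval of the young Vcan ratio by Adamts1 came to include 1 without the quadrant at low x and low y, at 1.20 (0.942 to 1.51). So did that of the Adamts4 old/young ratio without the old quadrant at high x and low y, at 1.74 (0.690 to 4.09). The floor of 3 was not varied. A stricter share of high bins was not run in the young section, since all its 103 bins with Adamts1 were already the high class.

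With each bin weighted equally the old/young ratio was 39.4 for Adamts1 and 6.24 for Vcan. Without the old quadrant at high x and low y it was 40.0 for Adamts1, 0.226 for Adamts5, 2.46 for Adamts9 and 4.18 for Vcan. Without the one at low x and high y it was 83.9 for Adamts1 and 9.34 for Vcan, without low x and low y 53.6 and 6.53, and without high x and high y 8.46 for Vcan. Without the young quadrant at low x and high y the Vcan ratio was 7.91.

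Vcan by Adamts1 in the old section was 11.6 with bins of 3 spacings, 6.35 with the 90 highest bins, 10.7 without the quadrant at high x and low y, 9.29 without low x and high y, 1.16 inside and 3.57 outside the areas. The inside and outside values were chosen after seeing the data. With beads of at least 200 counts the pair ratio of Vcan within 2 spacings was 1.78 young and 1.63 old around Adamts1, and 0.635 young and 1.34 old around Adamts5. Moran's I in bins of 8 spacings was -0.00750 for Adamts1, 0.0650 for Vcan and -0.0163 for Adamts5 (young) and 0.415, 0.403 and -0.0157 (old), so the sign for Adamts5 changed in both. At 2500 CPM the patch rule gave 120 bins in 2 patches and at 10000 CPM 0 bins in 0 patches. The rank of Vcan for young Adamts1 was 1224 with thinned bins. The cause of these shifts was not tested.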
